A study of Mus musculus with 24 samples.

Results

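Late carcinoma of week 12 was compared with early carcinoma of week 10 in PyMT mice, the step of the model in which lung metastases are present at the later age. The comparison took the 3 tumor libraries labelled week 10 and the 3 labelled week 12, which are 6 of the 24 small RNA libraries of the series, over all 510 miRNAs of the deposited count table. Tumors came from F1 females on the FVB background that carried the polyoma virus middle T oncogene under the mouse mammary tumor virus promoter (MMTV-PyMT), in the heterozygous state. This promoter drives the oncogene mainly in mammary epithelium, so both ages share the same initiating event and differ in age and stage. Age-matched FVB females without the transgene gave the normal mammary glands, and tumors of week 6 (hyperplasia) and week 8 (adenoma) are the earlier stages. According to the methods of the study, mammary tissue came from 3 mice of each kind per age and all tumor samples were from primary tumors. Whether a library holds 1 tumor or several of a mouse is not given in the sources used here, and the libraries are called tumors below.

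A miRNA is a short RNA that guides the silencing complex to messenger RNAs, mostly through its seed, the bases next to its 5′ end. miRNAs that share a seed are predicted to share targets, and miRNAs of 1 genomic cluster are often cut from a common precursor transcript. In mammary carcinoma, the miR-200 family holds the epithelial state against transition to mesenchyme, miR-31 and miR-126 are known as suppressors of metastasis, and miR-9, miR-10b and miR-21 are known as promoters of invasion or growth.

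The sequences below are the mature forms of the miRNAs on which the comparison turns, from RefSeq on GRCm38.p6, each 5′ to 3′ with the seed, bases 2 to 8, in capitals. All 21 mature miRNAs that were looked up had an entry, and they hold 13 different seeds. The counts give 1 value per miRNA name with no arm, so that the arm printed is the better known one of each hairpin and not one that the counts identify.

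miR-215 had the largest log2 difference among the miRNAs whose weeks did not overlap, and it is shown with miR-192, which has the same seed:
miR-215-5p: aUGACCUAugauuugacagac
miR-192-5p: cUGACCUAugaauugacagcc

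The miR-29 family, known for silencing collagen and other matrix genes, is shown because all of its members had positive differences:
miR-29a-3p: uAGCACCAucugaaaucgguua
miR-29b-3p: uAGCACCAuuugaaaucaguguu
miR-29c-3p: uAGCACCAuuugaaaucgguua

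miR-31, miR-410 and miR-9 each had an unadjusted p under 0.05:
miR-31-5p: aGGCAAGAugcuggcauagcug
miR-410-3p: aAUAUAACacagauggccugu
miR-9-5p: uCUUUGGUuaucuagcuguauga

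miR-195 and miR-497 are neighbours that lay above week 10 in every week 12 tumor, and miR-15a and miR-16 carry the same seed at other loci:
miR-195a-5p: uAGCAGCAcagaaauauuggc
miR-497a-5p: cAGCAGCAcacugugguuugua
miR-15a-5p: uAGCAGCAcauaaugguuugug
miR-16-5p: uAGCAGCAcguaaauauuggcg

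The oncogenic miR-17-92 cluster, all of whose members had negative differences, holds several seeds:
miR-17-5p: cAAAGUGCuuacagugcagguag
miR-20a-5p: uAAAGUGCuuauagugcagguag
miR-18a-5p: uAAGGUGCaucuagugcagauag
miR-19a-3p: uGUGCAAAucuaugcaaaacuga
miR-92a-3p: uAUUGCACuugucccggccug

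miR-296 and miR-298 are neighbours without a common seed, and miR-196a and miR-196b share a seed and differed between libraries of the same week:
miR-296-5p: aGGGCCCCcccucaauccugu
miR-298-5p: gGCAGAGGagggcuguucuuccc
miR-196a-5p: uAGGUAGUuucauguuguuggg
miR-196b-5p: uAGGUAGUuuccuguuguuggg

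Mature miR-29a and miR-29c differ at 1 of 22 bases, and so do miR-196a and miR-196b. miR-195a and miR-16 differ at 2 of 21 bases. Reads of such pairs could be assigned to either row, so that their values are not fully separate.

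The 6 libraries held between 1081959 and 2213972 counts, with 267 to 297 miRNAs detected in each, and 3 counts stood for 1.19 to 2.67 CPM (counts per 1000000 of the library total, scaled by the trimmed mean of M-values, TMM). Of the 510 miRNAs, 184 were at 0 in all 6 libraries, 89 were counted but too low for the filter on low values, and 237 were tested. Those 89 held 0.00747% of the counts of the 6 libraries. Replicate 1 of both weeks was in sequencing lane 1, and replicates 2 and 3 were in lane 2. A fit of lane 2 alone thus leaves out replicate 1 of both weeks, and lane and replicate cannot be told apart in it. The miR-200 family, a marker of epithelium, summed to between 20640 and 23234 CPM in every library. When the normal glands of both ages were scaled with the tumors, it summed to 20272 to 22484 CPM in tumors. In the normal glands the sums were 2789 to 4724 CPM. The muscle miRNAs set 1 library apart, as tumor replicate 3 of week 10 had a sum of 17446 CPM where the other 5 tumors had 39.2 to 666 CPM. The muscle and erythroid results, which rest most on this library, are given with and without it.

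The miRNA profile of late carcinoma was close to that of early carcinoma. At an adjusted p under 0.05, 0 of the 237 miRNAs were called (0% of those tested), and the lowest Benjamini-Hochberg adjusted p was 0.888 (edgeR, quasi-likelihood test). DESeq2 and edgeR's classic exact test also called 0. At an unadjusted p under 0.05, edgeR's quasi-likelihood test had 5 miRNAs (2.11%), DESeq2 had 7, and the classic exact test had 5. With no difference between the weeks, such a threshold would pass a share of about 0.05. The log2 fold change of week 12 over week 10 had a median of -0.0048 over all tested miRNAs, and its size had a median of 0.16, with the middle 50% of miRNAs between 0.087 and 0.30. Pearson's r of log2 CPM between libraries had a median of 0.982 within a week and of 0.981 between the weeks, over miRNAs that all come from the same libraries.

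The intervals say how large a difference the tumors leave room for. For 173 of the 237 miRNAs (73.0%), the 95% interval of the log2 fold change lay within 1 either way, that is, within a 2-fold difference. Of the 70 miRNAs with a mean of at least 1000 CPM, 68 had such an interval, the exceptions being miR-133a and miR-486, and the median size of their log2 fold change was 0.12. Among the 167 less abundant miRNAs, 105 had one. A log2 fold change of 1 or more in size was found for 6 miRNAs (2.53%), namely miR-9, miR-129 and miR-541 with higher means at week 12 and miR-1, miR-133a and miR-133b with lower ones, and the libraries of a single week differed widely for each of them. The SD of log2 CPM was larger among week 12 than among week 10 tumors for 136 miRNAs (57.4%), with medians of 0.26 and 0.20.

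**Figure D1:**
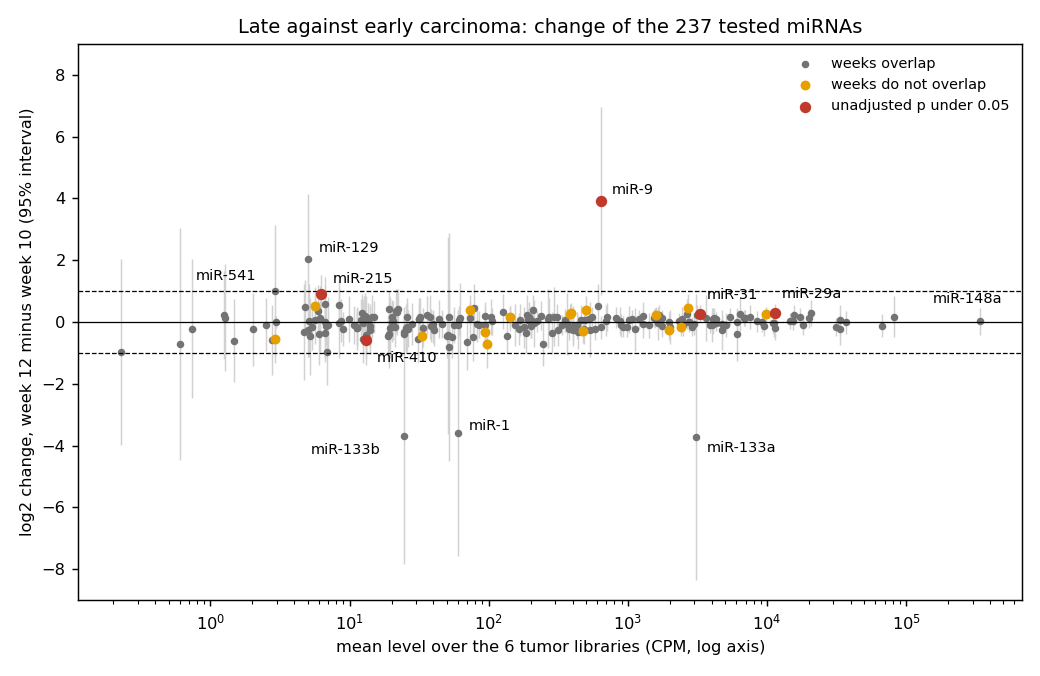
Log2 fold change of week 12 over week 10 tumors (y axis) against the mean level over the 6 tumor libraries in CPM (x axis, log scale) for the 237 tested miRNAs, with 95% intervals as grey lines, dashed lines at 1 either way, and colors for the 5 miRNAs with an unadjusted p under 0.05 and for other miRNAs whose weeks did not overlap. Most points lie close to 0, and those beyond the dashed lines have wide intervals.

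Without overlap between the weeks were 20 miRNAs (8.44%), 12 above week 10 in every week 12 tumor (5.06%) and 8 below (3.38%). If week labels were dealt at random, 3 against 3 libraries would separate fully with a probability of 0.1. The share found was not above that, so the members below are described and not taken as changed. Leading this group by their unadjusted p were miR-215, miR-29a and miR-31 on the higher side (1.69% of the tested miRNAs had an unadjusted p under 0.05 and a higher mean, miR-9 included) and miR-410 on the lower side (0.422%).

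miR-215 is known as a p53-linked miRNA that restrains the cell cycle, and lies on the plus strand of chromosome 1 of mm9 (187137460 to 187137571), opposite an intron of Iars2. It had 4.86, 4.45 and 3.56 CPM in the week 10 tumors and 8.36, 8.10 and 8.31 CPM in the week 12 tumors. The weeks did not overlap, and the values rest on 5 to 10 counts per library at week 10 and 11 to 21 at week 12. The difference on the log2 scale was 0.92 (standard error 0.26), with an unadjusted p of 0.0137 and a Benjamini-Hochberg adjusted p of 0.888 (edgeR, quasi-likelihood test). miR-192, with the same seed and a mean of 1573 CPM, had a log2 fold change of 0.12 (95% interval -0.19 to 0.44). The large majority of counts with this seed thus came from miR-192, for which the weeks overlapped.

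miR-29a, on the minus strand of chromosome 6 (31012660 to 31012747, mm9, intergenic) beside a copy of miR-29b, was the most abundant of the non-overlapping miRNAs. Its level was 9477, 9823 and 11228 CPM at week 10 and 12826, 12808 and 12170 CPM at week 12. All week 12 tumors lay above all week 10 tumors, by a log2 fold change of 0.31 (standard error 0.11, unadjusted p = 0.0295, Benjamini-Hochberg adjusted p = 0.888, edgeR, quasi-likelihood test). miR-29c, from an exon of the noncoding gene A330023F24Rik on chromosome 1, had 880, 1242 and 1428 CPM at week 10 and 1347, 1367 and 1391 CPM at week 12, where the weeks overlapped. miR-29b had 87.0, 72.1 and 101 CPM, then 97.2, 107 and 97.5 CPM, and also overlapped. The log2 fold change of both was 0.21 and their 95% intervals included 0. The family summed to 10443, 11136 and 12757 CPM at week 10 and to 14270, 14281 and 13659 CPM at week 12, which is mostly miR-29a. The family's median log2 fold change was 0.21, and 0.37 without early replicate 3.

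miR-31, at chromosome 4 of mm9 (88556461 to 88556566, minus strand, intergenic), had 2720, 3019 and 3170 CPM at week 10 and 3389, 3694 and 3676 CPM at week 12. The highest early tumor was below the lowest late tumor, with a log2 fold change of 0.27 (standard error 0.12, 95% interval 0.0019 to 0.54). The unadjusted p was 0.0488 and the Benjamini-Hochberg adjusted p 0.888 (edgeR, quasi-likelihood test). The level of this known suppressor of metastasis was higher in each of these 3 late tumors, by less than 2-fold, and the difference was not past the adjusted threshold.

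miR-195 and miR-497 lie 241 bases apart on the plus strand of chromosome 11 of mm9 (70048544 to 70048637 and 70048219 to 70048302, intergenic), and both are known to restrain G1 cyclins. miR-195 had 2412, 2204 and 2288 CPM at week 10 and 2741, 4169 and 2511 CPM at week 12. miR-497 had 422, 444 and 415 CPM at week 10 and 480, 722 and 493 CPM at week 12. For both, all late tumors were above all early ones and replicate 2 of week 12 was the highest. The log2 fold changes were 0.45 (standard error 0.20) and 0.40 (standard error 0.19), with unadjusted p of 0.0592 and 0.0653 in edgeR's quasi-likelihood test. Without replicate 2 of week 12 they were 0.19 for each. The seed relatives miR-15a and miR-16, at means of 489 and 2906 CPM, had log2 fold changes of 0.07 and -0.15 with overlapping weeks. miR-15b, which also has this seed, had 212, 229 and 213 CPM at week 10 in the scaling of the 12 tumor libraries. At week 12 it had 243, 223 and 202 CPM, again with overlap. The separation of the weeks was thus not shared by these relatives.

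The other 7 miRNAs that were higher in every late tumor were miR-125a, miR-365, miR-24, miR-30b, miR-326, miR-1982 and miR-455. Their log2 fold changes were between 0.15 and 0.53, and their unadjusted p in edgeR's quasi-likelihood test was 0.0551 or above. The best measured of them was miR-125a, which is known to target the receptors ERBB2 and ERBB3 and lies in an intron of Ncrna00085 on chromosome 17. Its level was 9527, 8399 and 9042 CPM at week 10 and 10873, 10275 and 10815 CPM at week 12, a log2 fold change of 0.25 (95% interval -0.0070 to 0.50).

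On the lower side, miR-410 comes from an exon of Mirg in the imprinted Dlk1-Dio3 domain on chromosome 12 of mm9 (110981925 to 110982005, plus strand). It had 13.1, 16.9 and 17.1 CPM at week 10 and 9.16, 9.97 and 12.1 CPM at week 12, without overlap. The difference was -0.59 on the log2 scale (standard error 0.24, unadjusted p = 0.0444, Benjamini-Hochberg adjusted p = 0.888, edgeR, quasi-likelihood test). The other 7 miRNAs below week 10 in every late tumor were miR-296, miR-186, miR-379, miR-17, miR-411, miR-101b and miR-665, with log2 fold changes between -0.73 and -0.17 and an unadjusted p of 0.0550 or above in the same edgeR test.

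miR-296, known for a role in angiogenic endothelium, and miR-298 lie 378 bases apart on the minus strand of chromosome 2 of mm9 (174092548 to 174092626 and 174093005 to 174093086). miR-296 had 139, 113 and 108 CPM at week 10 and 68.1, 44.3 and 106 CPM at week 12, where the third late tumor came close to the lowest early tumor. miR-298 had 409, 266 and 231 CPM at week 10 and 190, 123 and 247 CPM at week 12, with overlap. The log2 fold changes were -0.73 (standard error 0.32) and -0.70 (standard error 0.31). Without replicate 3 of both weeks they were -1.18 and -1.14, with a Benjamini-Hochberg adjusted p of 0.337 for each (edgeR, quasi-likelihood test), and without replicate 1 of week 10 the value of miR-298 was -0.41.

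**Figure D2:**
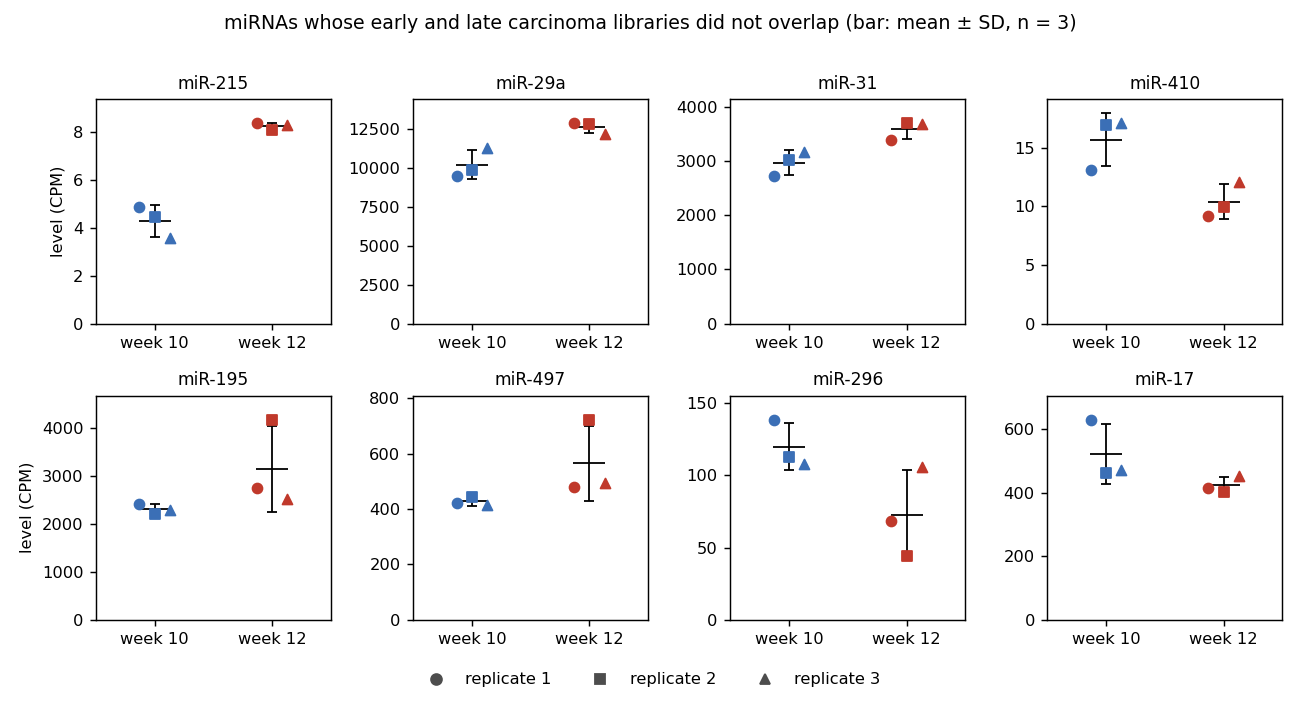
Level in CPM (y axis, from 0) of 8 miRNAs whose early and late carcinoma libraries did not overlap, with week 10 in blue, week 12 in red, symbols for the replicate number, and mean ± SD (n = 3) as bars. miR-215, miR-29a and miR-31 have tight late values above the early ones, while miR-195 and miR-497 share a high replicate 2 and miR-296 has a late tumor next to the lowest early one.

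The miR-17-92 cluster, which drives proliferation downstream of MYC, had negative log2 fold changes for 6 of 6 members, with a median of -0.29 beside -0.0048 for all tested miRNAs. miR-17, miR-19a and miR-20a lie in exons of Mir17hg on chromosome 14, where miR-17 spans 115442893 to 115442976 of mm9. Positions of the other members are not given here, and the counts do not name the gene copy that a read came from. miR-17 had 629, 462 and 472 CPM at week 10 and 413, 401 and 453 CPM at week 12, the only member without overlap. miR-18a had 208, 143 and 121 CPM, then 117, 99.1 and 130 CPM. The early tumor of replicate 1 was the highest library for both. miR-92a, by far the most abundant member, had 66797, 76880 and 66421 CPM and then 56925, 58175 and 78943 CPM, with a log2 fold change of -0.11. None of the 6 had an unadjusted p under 0.05 in edgeR's quasi-likelihood test, and the sign was negative for all 6 under each of the 19 alternatives tried, with medians between -0.47 and -0.13. The median was -0.13 without early replicate 1. These alternatives refit the same tumors, and miRNAs of a cluster are not independent, so the shared sign is not further evidence of a change. The related miR-106b-25 cluster (miR-106b, miR-93 and miR-25), in which miR-106b and miR-93 share the seed of miR-17, had negative values for 3 of 3 members, from -0.21 to -0.05, and its median was 0.03 in the lane 2 libraries alone.

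miRNAs of epithelium differed little between the ages. In the miR-200 family, whose members silence Zeb1 and Zeb2, 5 of 5 members had log2 fold changes between -0.02 and 0.06. miR-200b, the most abundant, had 14138, 13622 and 15787 CPM at week 10 and 15307, 14262 and 14896 CPM at week 12. Its 95% interval was -0.23 to 0.29, which leaves no room for a loss of 2-fold or more. miR-429 had an interval of -0.30 to 0.27 and miR-200a one of -0.30 to 0.31. The cluster of miR-183, miR-96 and miR-182 was between -0.18 and -0.01 at 3 of 3 members and turned to a median of 0.14 in the lane 2 libraries alone. miR-205, a marker of basal epithelium, had 6193, 4757 and 4496 CPM and then 4163, 5941 and 2806 CPM, with a log2 fold change of -0.26 (95% interval -0.90 to 0.38).

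let-7, a family that marks differentiated cells and silences Ras and Hmga2, had positive values for 7 of 8 tested members, between 0.09 and 0.23 with let-7i at -0.10, and a median of 0.13, or 0.21 without late replicate 1. miR-98, of the same family, was at 0 in all libraries of the series, and the counts do not show whether it was absent or was not counted. let-7c, the most abundant, had 13302, 14579 and 15157 CPM at week 10 and 14101, 17851 and 18161 CPM at week 12, with overlap. The p53-linked miR-34 family had 3 of 3 positive values with a median of 0.34. Without late replicate 2 it had 2 of 3 with a median of 0.13, and without early replicate 3 it had 2 of 3 with a median of 0.24. miR-34a, with means of 179 ± 28.6 CPM at week 10 and 234 ± 46.0 CPM at week 12 (SD, n = 3) and overlapping weeks, had a log2 fold change of 0.38 (95% interval -0.11 to 0.87).

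Among 6 miRNAs known to promote metastasis, 4 had a positive and 2 a negative value, with a median of 0.04. Apart from miR-9 they lay between -0.24 and 0.21. miR-10b had 36833, 31007 and 41481 CPM at week 10 and 29044, 40099 and 23528 CPM at week 12, and miR-21 had 21614, 16829 and 17945 CPM and then 18186, 17837 and 16222 CPM. The weeks overlapped for both. Of 10 known suppressors of metastasis, 8 were tested, with 3 positive and 5 negative values and a median of -0.03. Both medians changed sign when a single library was left out, to -0.01 for the promoters and 0.12 for the suppressors without late replicate 3. Within these lists, miR-9 and miR-31 were the members with an unadjusted p under 0.05 in edgeR's quasi-likelihood test.

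**Figure D3:**
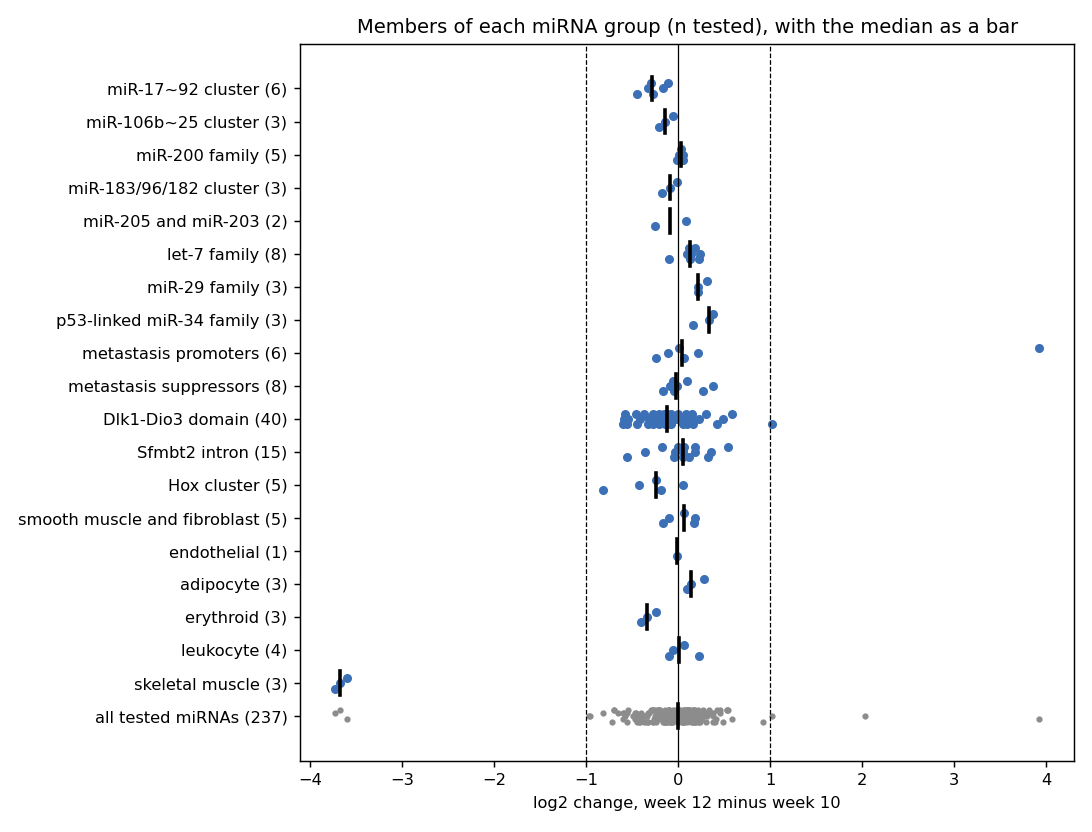
Log2 fold change of week 12 over week 10 (x axis) of the tested members of each group of miRNAs (rows, number tested in brackets), 1 point per miRNA, with the median as a black bar, dashed lines at 1 either way and all 237 tested miRNAs in the bottom row. Medians of the plotted groups other than the muscle miRNAs lie between -0.34 and 0.34, and the neuronal list (median 0.97), miR-210 and the groups of the study are not plotted.

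The Dlk1-Dio3 domain on chromosome 12 holds a large cluster of imprinted miRNAs expressed from the maternal allele. Of its 55 listed miRNAs, 40 were tested, 11 had counts below the filter and 4 were at 0 in every library of the series. Negative values were found for 27 of the 40 and positive ones for 13, with a median of -0.13. miR-410, miR-379, miR-411 and miR-665 were below week 10 in every late tumor, and no member was above in every late tumor. Thus 4 of the 40 members did not overlap, beside 20 of all 237 tested miRNAs (8.44%), of which 8 were below (3.38%). Whether the domain holds more such miRNAs than others was not tested, and members of a cluster are not independent. miR-127, the most abundant with a mean of 9537 CPM, had 10111, 9524 and 10307 CPM at week 10 and 10473, 8475 and 8331 CPM at week 12. Its log2 fold change was -0.13, with a 95% interval of -0.44 to 0.17. miR-541 stood at the other end with 1.02 (95% interval -1.11 to 3.15), on 1 to 5 counts per library at week 10 and 12, 11 and 0 at week 12. The number of negative values ranged from 23 to 32 of 40 when single libraries were left out, and was 32 without replicate 1 of week 12.

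The intronic miRNAs of Sfmbt2 on chromosome 2, near-identical repeats that rodent genomes hold in many copies, were measured at 15 of 38 listed names, with 9 positive and 6 negative values and a median of 0.05, or -0.06 without late replicate 1. The sum over the 15 was 295, 266 and 278 CPM at week 10 and 301, 219 and 334 CPM at week 12. Reads of such copies cannot be assigned to 1 name with certainty, and the sum overlapped between the weeks.

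miR-9, a miRNA of the nervous system that also silences E-cadherin in breast cancer cells, had the highest log2 fold change, 3.92 (standard error 1.29, unadjusted p = 0.0182, Benjamini-Hochberg adjusted p = 0.888, edgeR, quasi-likelihood test). Its level was 85.1, 122 and 29.9 CPM at week 10 and 263, 103 and 3222 CPM at week 12. A single late tumor, replicate 3, was thus more than 10 times as high as any other of the 6, and the weeks overlapped. A single high library was also found among the adenomas of week 8, where miR-9 had 26.3, 1611 and 9.51 CPM, beside 3250 CPM for late replicate 3 in the same 12-library scaling. Without this tumor the log2 fold change was 1.19 (standard error 0.61), and with replicate 3 of both weeks left out it was 0.80.

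The same late tumor was the highest for miR-210, the miRNA best known as a target of hypoxia-inducible factor, with 1075 CPM beside 592 and 490 CPM in the other late tumors and 429, 493 and 576 CPM in the early ones. The log2 fold change of miR-210 was 0.53 (standard error 0.30), and 0.11 without this tumor. Of the other neuronal miRNAs, miR-124 had 1 to 4 counts in every tumor, miR-128 had a log2 fold change of -0.08 and miR-218 one of -0.44. miR-129 had 3, 2 and 4 counts at week 10 and 38, 1 and 11 counts at week 12, so that the late tumor with the most miR-129 was not the one with the most miR-9.

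The skeletal muscle miRNAs were high in early replicate 3. miR-133a had 114, 36.5 and 16981 CPM at week 10 and 164, 483 and 647 CPM at week 12, and miR-1 had 4.38, 1.78 and 329 CPM and then 8.36, 4.36 and 15.1 CPM. miR-133b had 1, 1 and 191 counts, then 4, 9 and 5. The log2 fold changes of the 3 were -3.73, -3.60 and -3.68, and without that library they turned to 2.49 (standard error 0.69), 1.42 (standard error 0.63) and 2.31 (standard error 0.85). Of the 6 listed muscle miRNAs the remaining 3 did not pass the filter, and among them miR-206 had 2 counts in all 6 libraries. Of the erythroid miRNAs, miR-486 was also highest in that library, as it had 4512, 5341 and 10748 CPM at week 10 and 3693, 6878 and 5033 CPM at week 12. The value of miR-486, -0.40, was 0.08 without it. The other 2 erythroid miRNAs stood out less there. In the scaling of the 12 tumor libraries, miR-144 had 267 CPM in that library and 209 CPM in late replicate 2. miR-451 had 1437 and 1529 CPM in the same 2 libraries. In normal gland, miR-133a had 152, 87.3 and 42238 CPM at week 10 and 80626, 2347 and 665 CPM at week 12, so high values also occurred in single normal libraries of both ages. The part of muscle tissue in these values was not tested.

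miR-196a and miR-196b, encoded in the Hox clusters on chromosomes 11, 15 and 6, varied more between tumors of the same age than between the ages. miR-196a had 112, 81.9 and 2.14 CPM at week 10 and 1.99, 108 and 1.51 CPM at week 12, and miR-196b had 90.4, 74.8 and 9.97 CPM and then 3.19, 125 and 3.02 CPM. The tumors thus fell at high or low levels of both miRNAs together, with 3 tumors at each. Their log2 fold changes were -0.82 (standard error 1.57) and -0.42 (standard error 1.36). In the normal glands of the same ages, miR-196a had 515, 453 and 3.94 CPM at week 10 and 2.79, 606 and 2.41 CPM at week 12, so that the normal libraries with high values carried the same week and replicate number as the tumors with high values. The study describes the controls as other mice, and what the same-numbered libraries have in common is not given in the sources used here. miR-10a and miR-10b, of the Hox clusters on chromosomes 11 and 2, varied over less than 2-fold between tumors. The 5 tested miRNAs of the Hox clusters had 1 positive and 4 negative values. miR-2140, also among the most variable at week 12, had 33.3 to 104 CPM over the 6 tumors and a log2 fold change of 0.13.

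**Figure D4:**
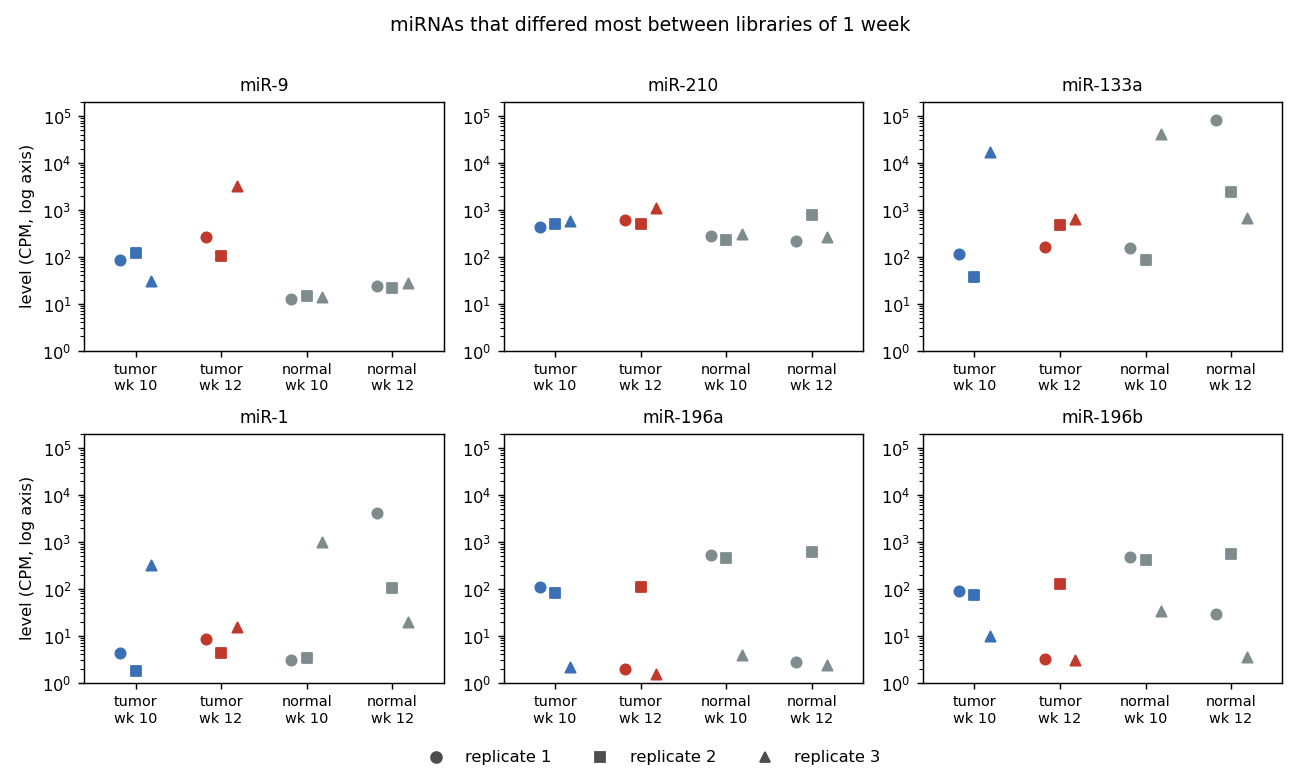
Level in CPM (y axis, log scale) of 6 miRNAs in tumors (blue for week 10, red for week 12) and normal glands (grey) of both ages, with 1 symbol per replicate number. miR-9 and miR-210 are highest among tumors in late replicate 3, miR-133a and miR-1 in early replicate 3, and miR-196a and miR-196b are high or low in the same-numbered tumor and normal libraries.

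The markers of other cell types differed in direction between lists, and most list medians depended on single libraries. In bulk tissue, fewer cells of a type and less RNA per cell cannot be told apart. The smooth muscle and fibroblast list (miR-143, miR-145, miR-199a, miR-199b and miR-214) had 3 positive and 2 negative values with a median of 0.06, and summed to 73669, 98915 and 76559 CPM at week 10 and to 74309, 133417 and 70118 CPM at week 12. Without late replicate 2 all 5 values were negative (median -0.19), and without late replicate 3 all 5 were positive (median 0.25). Late replicate 2 was the highest for the list and was also the highest for miR-195 and miR-497, and the part of one in the other was not tested. The leukocyte list had 2 positive and 2 negative values with a median of 0.00. This median was -0.11 without early replicate 2 and 0.10 without early replicate 3. miR-223, the defining myeloid member of the list, was at 0 in every library of the series, while miR-142 had a mean of 1410 CPM. The counts do not show whether miR-223 was absent or was not counted, so its 0 is not read as absence. miR-126 of endothelium had a log2 fold change of -0.02 (95% interval -0.40 to 0.37), the adipocyte list 3 of 3 positive values with a median of 0.14, and the erythroid list 3 of 3 negative values with a median of -0.34, or -0.08 without early replicate 3. The adipocyte median was 0.36 without early replicate 3 and 0.0066, with 2 of 3 positive, without early replicate 2.

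The share of the most counted miRNAs was close in mean between the ages and more spread at the later age. miR-148a, a miRNA that is also abundant in milk, took 34.1%, 30.7% and 35.5% of the counts at week 10 and 29.5%, 32.1% and 38.5% at week 12. The mean share was 33.5% ± 2.47 and 33.4% ± 4.62 (SD, n = 3), a difference of -0.0950 percentage points (p = 1, two-sided exact permutation test, which with 3 against 3 cannot go below 0.1). The 5 most counted miRNAs, miR-148a, miR-143, miR-92a, miR-182 and miR-10a, took 55.2% ± 0.471 at week 10 and 55.3% ± 3.69 at week 12 (SD, n = 3; p = 1, exact permutation test). Early tumors lay between 54.7% and 55.7% and late tumors between 51.1% and 58.0%. miR-30d, the eighth most counted, had 16055, 19497 and 20248 CPM at week 10 and 19725, 20228 and 28839 CPM at week 12, a log2 fold change of 0.30 (95% interval -0.13 to 0.73). Without late replicate 3 it was 0.09. miR-146b had a log2 fold change of -0.17 (95% interval -0.45 to 0.12).

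Normal glands of the same ages served to ask whether a difference between the weeks was particular to tumor. The change from week 10 to week 12 in tumor minus that in normal gland was past an adjusted p of 0.05 for 0 of 237 miRNAs (0%) and past an unadjusted p of 0.05 for 5 (2.11%) in edgeR's quasi-likelihood test. Normal glands alone had 0 (0%) and 14 (5.91%). Tumor and normal changes had the same sign for 150 of the 237 miRNAs (63.3%). Of all 237, whatever the sign, 79 had the larger change in size in tumor, with median sizes of 0.16 in tumor and 0.26 in normal gland. Across these miRNAs Spearman's rho was 0.25 and Pearson's r -0.02, and without miR-9 and the 3 muscle miRNAs r was 0.25. The miRNAs of a library share its scaling and are not independent replicates.

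The miRNAs that led the tumor comparison did so in normal glands in part. miR-29a had a log2 fold change of 0.27 in tumor and of 0.56 in normal gland in the 12-library fit, and miR-215 had 0.89 and 1.16. miR-296 had -0.76 and -0.82, and miR-17 had -0.34 and -0.61. miR-9 had 3.88 and 0.83, a difference of 3.04 (95% interval 0.00027 to 6.09), and its tumor change rested mostly on late replicate 3. In normal gland miR-9 had 12.5, 14.9 and 13.8 CPM at week 10 and 23.3, 22.1 and 28.2 CPM at week 12, without overlap. For miR-31 the values were 0.23 and -0.04, and for miR-195 they were 0.41 and -0.16, and the differences of 0.27 (95% interval -0.24 to 0.79) and 0.57 (95% interval -0.05 to 1.19) included 0. The lowest unadjusted p of this contrast was that of miR-138, 0.0063 (Benjamini-Hochberg adjusted p = 0.997, edgeR, quasi-likelihood test). miR-138 had a log2 fold change of -0.63 in tumor and 0.82 in normal gland, a difference of -1.45 (standard error 0.43).

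**Figure D5:**
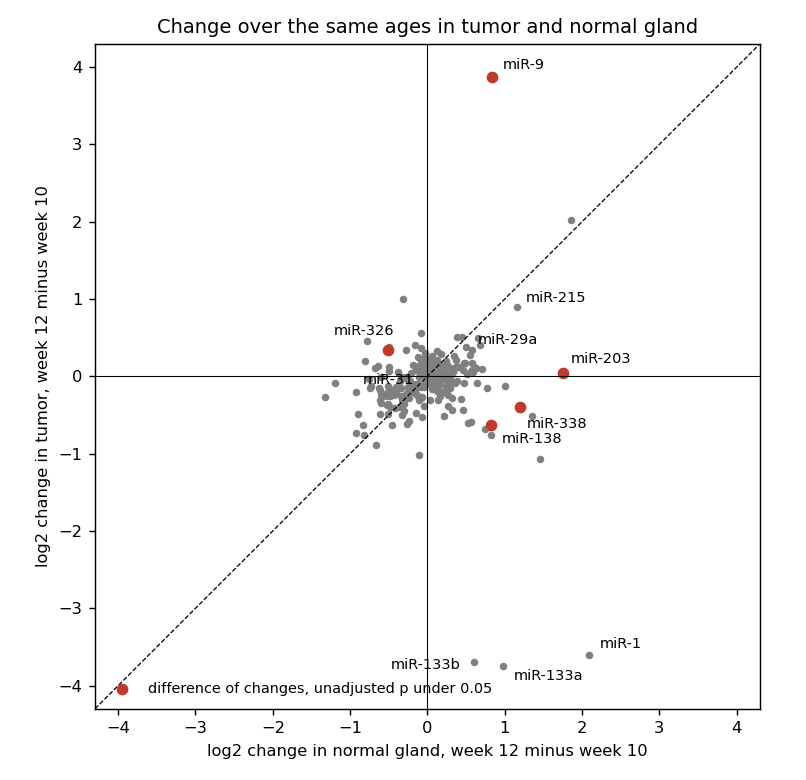
Log2 fold change of week 12 over week 10 in tumor (y axis) against that in normal gland (x axis) for the 237 tested miRNAs from the fit of 12 libraries, with the dashed line marking equal change and red points the 5 miRNAs whose changes differed at an unadjusted p under 0.05. Most points lie near 0, miR-215 and miR-29a are positive on both axes, and miR-9 and the muscle miRNAs stand away from the line.

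The step from early to late carcinoma was also set against the step from hyperplasia to adenoma, from week 6 to week 8, which shares no library with it. The contrast of both steps called 0 of 237 miRNAs (0%) in edgeR's quasi-likelihood test, with 14 at an unadjusted p under 0.05 (5.91%). The earlier step alone called 3 (1.27%), with 31 at an unadjusted p under 0.05 (13.1%). That 3 were called in 1 step and 0 in the other is not a tested difference between the steps, since the contrast itself called none. Without early replicate 3 of week 10 the contrast called 3 miRNAs, all of them of muscle. They were miR-133a, miR-1 and miR-133b, with differences of 10.1, 7.82 and 9.59 on the log2 scale and Benjamini-Hochberg adjusted p of 0.00239, 0.00574 and 0.0135 (edgeR, quasi-likelihood test). With all libraries the same differences were 3.89, 2.81 and 3.63, none past the threshold. The larger part lay in the earlier step, where the log2 fold changes of week 8 over week 6 were -7.58, -6.38 and -7.27. miR-133a had 17529, 8859 and 2055 CPM in the hyperplasias and 62.7, 45.9 and 39.9 CPM in the adenomas. The library was left out after its muscle values were seen.

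The study grouped 12 miRNAs that rose in the last transition only and 6 that fell in it only, by a rule on the difference between tumor and normal gland in these same samples, so that their direction here is no independent evidence. Of the 12, 11 were in the table and 5 were tested, with 4 positive values and a median of 0.38. miR-326 had 51.1, 68.6 and 70.5 CPM at week 10 and 80.5, 73.6 and 93.0 CPM at week 12, and was the only one of the 5 without overlap. miR-375 had -0.17 and miR-204 had 0.18, both with overlap. The other 6 did not pass the filter and had at most 4 counts in all 6 libraries together. Of the 6 that fell, 3 were tested, namely miR-133a, miR-133b and miR-203, with a median of -3.68 and 1 positive value. Without early replicate 3 all 3 were positive with a median of 2.31. miR-203 had a log2 fold change of 0.08 (95% interval -0.36 to 0.53). These values are changes in tumor alone, which is not the measure of the study's rule. As tumor change minus normal gland change, the rising group had 0.85 (miR-326), 1.24 (miR-376b), 0.77 (miR-204), 0.72 (miR-375) and 1.32 (miR-541). The falling group had -1.72 (miR-203), -4.72 (miR-133a) and -4.29 (miR-133b). The 95% intervals included 0 except for miR-326 and miR-203, and the rule used these same samples.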

How the data were processed

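Small RNA libraries of snap-frozen tissue were made with the Illumina TruSeq kit. According to the methods of the study, the authors trimmed adaptors, kept reads of mature miRNA length, aligned them with Bowtie and counted reads that overlapped miRBase miRNAs. The methods name mm10 and the labels mm9. The values deposited by the authors are raw counts per miRNA name, not normalized and without molecular identifiers. Annotated positions are of mm9 (GENCODE vM1).

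All 24 columns were used. miRNAs were filtered over all 24 libraries and 8 groups (filterByExpr, defaults), leaving 237, and fitted with edgeR 4.0.16 in R 4.3.3 (TMM, glmQLFit, glmQLFTest) on the 6 tumor libraries, with Benjamini-Hochberg adjustment over the 237 miRNAs. Standard errors are the log2 fold change over the square root of F, and 95% intervals use the t distribution, so they include the spread between tumors of a week. The floor of 3 counts covers counting error only. Contrasts with normal glands used 12 libraries, and the contrast of steps the 12 tumor libraries. Shares were compared with exact permutation tests (scipy 1.17.1). Alternatives were DESeq2 1.42.0, the classic exact test, other scalings and filters, lane, replicate number and left-out libraries. The fits were run on simulated counts with known changes. The simulation gave all miRNAs the same limited spread between libraries, so it does not cover miRNAs whose libraries differed widely.

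Named miRNAs were those with an unadjusted p under 0.05 and no overlap, the 8 most counted, the 5 most variable in each week with a mean of at least 10 CPM, and members of fixed lists. miR-296, miR-298, miR-125a, miR-195, miR-497, miR-17, miR-18a, miR-210, miR-34a, miR-129, miR-541 and miR-486, and other single values, were added after their values were seen. The comparison, the lists and the tests were chosen with earlier results of these data known.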

Additional observations from a re-analysis of the deposited data

How the results depend on the processing

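No miRNA was called under any of the 19 alternatives to the fit of week 12 against week 10, nor with a log2 change of at least 1 as a further demand, and the unadjusted count ran from 1 (all 24 libraries in the fit) to 14 (replicate 3 of both weeks left out, chosen after seeing the data). It was 2 with library sizes only, 8 with all 12 tumor libraries, 11 without a filter and 5 to 14 with 1 library left out, the highest without week 12 replicate 1. Between 121 (lane 2 only) and 176 miRNAs had a 95% interval within a log2 change of 1.

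Same-numbered tumors of both weeks had correlations of 0.07, 0.10 and 0.25 between their deviations, not all over 0.1, so the numbers were not taken to pair the samples. With the replicate block, 0 were called and 3 had an unadjusted p under 0.05, and miR-133a was at 0.14 in place of -3.73. The block changed no other call.

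Of 579 pairs of a named miRNA and an alternative, 548 kept the sign and 31 turned it, and 0 passed the threshold. With library sizes only and with lane as covariate miR-148a was at -0.0041 and -0.00044, and with all 12 tumor libraries miR-182 was at 0.0013. In lane 2 only, miR-182 was at 0.14, miR-10a at -0.063, miR-196a at 0.41 and miR-196b at 0.62. With replicate 3 of both weeks left out, miR-148a was at -0.081, miR-10b at 0.010, miR-133a at 2.07, miR-1 at 0.93, miR-133b at 2.24 and miR-486 at 0.088. With 1 library left out, ranges that crossed 0 were -0.16 to 0.20 for miR-148a, -0.19 to 0.35 for miR-143, -0.17 to 0.14 for miR-182, -0.12 to 0.25 for miR-10a, -4.20 to 0.16 for miR-196b, -4.31 to 2.49 for miR-133a, -0.36 to 0.58 for miR-2140, -4.17 to 1.42 for miR-1, -4.27 to 2.31 for miR-133b and -0.65 to 0.078 for miR-486.

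The share of miR-148a differed by 2.17 percentage points in lane 2 only and by -2.65 to 1.85 with 1 library left out, and that of the 5 most counted by -1.21 to 2.25. The contrast of steps called 0 to 3 with 1 library left out. A group of 3 tumors and a floor of 3 counts, 1.19 to 2.67 CPM, limit what could be seen for rare miRNAs.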
